A study of Manihot esculenta with 44 samples.

Results

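Leaves of field-grown cassava in Bac Kan, Vietnam, were compared between 5 October 2019 and 11 September 2019, 24 days apart, with 4 libraries on each date. These are 8 of the 44 leaf libraries of a study that followed 1 variety, KU50, in Hanoi and Bac Kan through the 2019 season. KU50 is a popular cultivar of Southeast Asia, and every plant was grown from a cutting of a lignified stem. The labels name no treatment or transgene. The 5 October group and the 11 September group thus share variety, province and fertilizer, and differ in date and in all that changed with it. The labels do not say whether libraries came from separate plants, which leaf was taken, or the hour and weather at sampling. Means are given ± SD over the 4 libraries of a date. P-values and standard errors rest on a spread per gene taken within all 11 groups of the 44 libraries, not from these 8 alone. That spread may be technical. The date field of the labels differs from the date in the title in all 8 libraries, and the site field differs in 4 of the 8. Dates here are those of the titles, which the tables named in the labels repeat. The 30 October table also holds a copy of 1 column of the 5 October table, called library 4 here, and the copy was not used.

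Heat shock proteins are chaperones that bind unfolding proteins, and plants make them under heat and several other stresses through heat shock transcription factors. Light-harvesting proteins capture light for the photosystems, and their transcripts vary with light, hour and leaf age. The plant clock keeps morning and evening genes apart in the day. In Arabidopsis, evening proteins such as FKF1 take part in measuring day length upstream of the florigen gene FT.

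Levels are FPKM, a read measure per transcript length and library size, summed over the transcripts of a gene and rescaled to a total of 1000000 per library. A difference is 5 October minus 11 September on the log2(level + 1) scale with its standard error, which understates the change of low genes, and a gene was called at an adjusted p under 0.05 by limma over 23405 genes. Gene names are those of the best Arabidopsis hit in the deposited annotation. Of all tested genes 4.48% were called, 493 higher (2.11%) and 555 lower (2.37%) on 5 October, with a median difference of -0.03 over all genes. The balance turned with the scaling: median-ratio scaling gave 565 higher and 479 lower, and the deposited FPKM 435 higher and 731 lower. The 4 libraries of one date lay wholly above those of the other in 2715 genes (11.6%). The other 5 steps between neighbouring Bac Kan dates called 4.44% to 11.1% of the genes.

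All 8 libraries correlated best with a library of their own date. The median correlation over genes was 0.924 within 5 October, 0.934 within 11 September and 0.915 between the dates. Library 4 of 5 October correlated at 0.923 with the others of its date and at 0.909 with the 30 October libraries. Depth is not in the files. A relative depth read from the lowest values was 0.949 to 1.12 on 5 October and 1.08 to 1.59 on 11 September. Gene IDs without the MANES prefix, taken here as noncoding, held 0.468% to 0.776% of the level on 5 October and 0.348% to 0.546% on 11 September. The part of depth and noncoding share in the results was not tested. Leaf markers were abundant: the summed photosynthesis list was 45266 to 55056 on 5 October and 52499 to 60449 on 11 September. Floral organ genes summed to 38.3 to 57.8 on 5 October and 41.2 to 72.1 on 11 September, with 15 of 27 IDs at 0 in all 8 libraries. Xylem and secondary wall genes summed to 58.9 to 67.6 on 5 October and 55.4 to 75.1 on 11 September, with 34 of 64 IDs at 0. In neither list was a gene called.

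Of the 26 gene lists, heat shock and chaperones held the most higher genes. Of 54 tested members of the list (63 IDs in all), 25 rose and none fell, against 2.11% higher and 2.37% lower over all genes. Their median difference was 1.36, and 48 of the 54 had a difference above 0. The photosynthesis list went the other way, with 14 of 48 tested members lower, 2 higher and a median of -0.33. Smaller groups were evening clock genes, lower in 3 of 14, and cold and dehydration genes, higher in 4 of 30. Morning clock genes went both ways, higher in 2 and lower in 1 of 16. No member of the florigen list (4 tested) or of the floral integrator list (26 tested) was called.

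**Figure D1:**
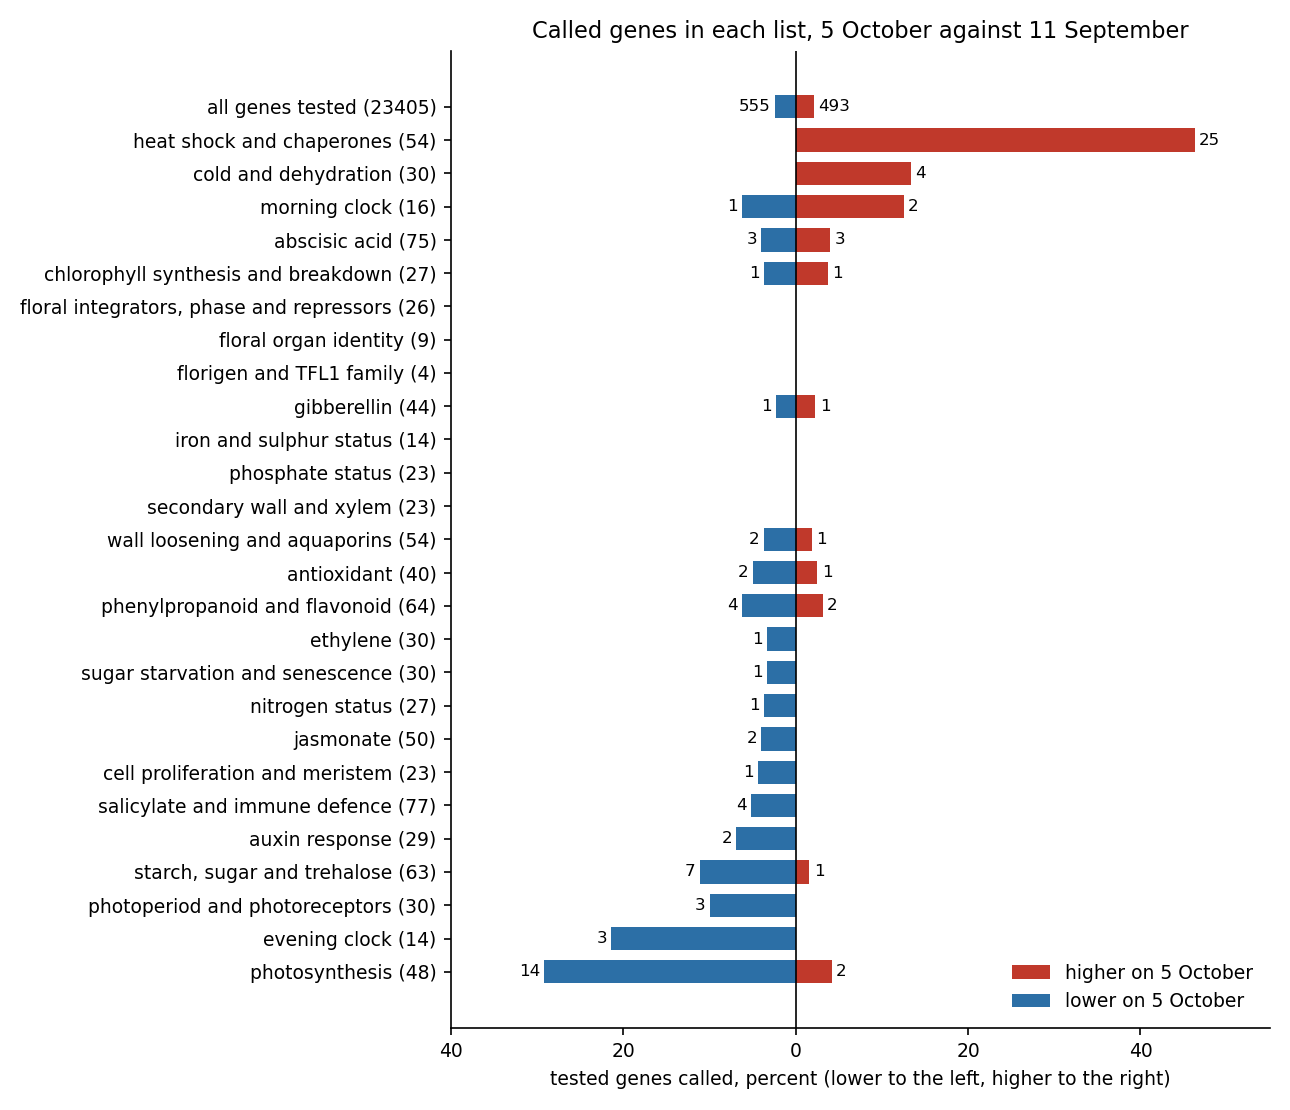
Share of tested genes called in each list on 5 October against 11 September, with genes called higher to the right, genes called lower to the left, the number called at the bar and the number tested in brackets. Heat shock and chaperones reach 25 of 54 to the right, and photosynthesis 14 of 48 to the left.

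The heat shock factors come first in this pathway. HSFA2, a factor that in Arabidopsis sustains the heat response, has 3 tested homologues, 1 of them (MANES_16G081500) below 1 on average on both dates. MANES_03G049500 had levels of 53.7, 52.2, 108 and 17.8 on 5 October, against 12.4, 6.67, 6.79 and 0.852 on 11 September. All 4 October libraries lay above all September ones, and the gene rose by 2.99 ± 0.59 (adjusted p = 0.00155). The other, MANES_03G035500, stood at 4.44, 11.5, 8.54 and 12.9 on 5 October, against 2.80, 1.66, 5.34 and 2.47 on 11 September. These overlapped and the gene was not called (1.34 ± 0.42, adjusted p = 0.0556), but 5 of 17 alternatives called it, with adjusted p from 0.0297 to 0.156 over all 17. The B-class factors HSFB1 (MANES_13G124500) and HSFB2A (MANES_14G027700), which lack the activation motif of the A class, averaged 38.7 ± 14.4 and 25.8 ± 3.69 on 5 October against 9.91 ± 4.67 and 8.69 ± 4.77 on 11 September. Both rose, by 1.89 ± 0.37 (adjusted p = 0.00124) and by 1.57 ± 0.37 (adjusted p = 0.00938). The call of HSFB2A was lost without library 4 of 11 September (adjusted p = 0.0528). HSFA3, HSFB2B and the second HSFB1 homologue were not called, nor was the cofactor MBF1C.

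BAG5, a co-chaperone that in Arabidopsis binds HSP70 in mitochondria, had the largest rise of the named genes. MANES_13G007700 had levels of 292, 149, 1354 and 56.2 on 5 October, against 5.91, 14.4, 4.71 and 4.62 on 11 September. The lowest October library was 56.2 and the highest September library 14.4, and the difference was 4.98 ± 0.75 (adjusted p = 5.67e-05). The second BAG5 homologue, MANES_10G111700, averaged 3.43 ± 2.31 on 5 October and 3.52 ± 1.47 on 11 September and was not called (adjusted p = 0.93).

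HSP90 and HSP70 are ATP-driven chaperones that fold client proteins, and HSP101 is the disaggregase that draws proteins out of aggregates. The HSP90.1 homologue MANES_06G152800 had levels of 1317, 851, 1466 and 134 on 5 October, against 49.9, 55.3, 59.7 and 30.3 on 11 September, a rise of 3.83 ± 0.52 (adjusted p = 1.55e-05). Libraries 1 to 3 of 5 October were at 851 or more and library 4 was at 134, still above every September library. The second homologue, MANES_14G022300, showed the same order of libraries, with 705, 543, 840 and 135 on 5 October against 79.7, 70.8, 71.1 and 46.6 on 11 September (2.78 ± 0.41, adjusted p = 3.87e-05). HSP101 (MANES_06G085600) had 342, 242, 746 and 155 on 5 October, against 79.7, 56.2, 39.2 and 36.6 on 11 September (2.61 ± 0.34, adjusted p = 1.10e-05). HSP70 (MANES_07G114200) had 421, 352, 517 and 172 on 5 October, against 105, 87.4, 61.7 and 36.6 on 11 September (2.31 ± 0.27, adjusted p = 1.17e-06). The dates did not overlap in any of these 4 genes.

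Of the constitutive HSP70 forms (homologues of HSC70-1), MANES_02G171300 rose by 1.33 (adjusted p = 0.00276) and MANES_10G031400 by 1.27 (adjusted p = 0.00475). The most abundant, MANES_07G114800, averaged 1192 ± 173 on 5 October and 819 ± 108 on 11 September and was not called (adjusted p = 0.103).

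The small heat shock proteins hold unfolded proteins without ATP. HSP21, the form of the chloroplast, has 2 called homologues. MANES_13G013400 had 613, 603, 783 and 202 on 5 October, against 125, 96.9, 91.9 and 46.2 on 11 September (2.52 ± 0.37, adjusted p = 3.73e-05). MANES_12G017300 had 225, 73.7, 254 and 62.9 on 5 October, against 22.3, 14.6, 2.86 and 1.0 on 11 September (4.14 ± 0.80, adjusted p = 0.00119). Both were wholly apart between the dates, whereas the further homologue MANES_01G042200 had 1.82, 33.7, 82.7 and 29 on 5 October, against 181, 48, 2.15 and 1.42 on 11 September and was not called (adjusted p = 0.886). HSP22, an endomembrane form, had 65.9, 35.2, 97.8 and 14.3 in MANES_07G031300 on 5 October, against 9.97, 4.59, 0 and 0 on 11 September (3.97 ± 0.80, adjusted p = 0.00193). The cytosolic class II protein HSP17.6II (MANES_16G083600) had 712, 403, 773 and 192 on 5 October, against 141, 79.0, 114 and 50.3 on 11 September (2.33 ± 0.45, adjusted p = 0.0013). Again each October library exceeded each September one.

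Homologues of HSP17.6C, a cytosolic class I protein, include neighbouring IDs that run from MANES_14G149200 to MANES_14G149800. How the authors' counting split reads between such copies is not known, so each copy by itself is uncertain. The largest rise among them was MANES_14G149500, with 16.8, 15.7, 55.6 and 1.90 on 5 October against 0, 0, 0 and 0.409 on 11 September (3.77 ± 0.71, adjusted p = 0.000955). Away from these IDs, MANES_02G124800 and MANES_02G125200, which have another class I protein of Arabidopsis as best hit, rose by 3.1 ± 0.44 (adjusted p = 2.70e-05) and 3.50 ± 0.61 (adjusted p = 0.000327). MANES_02G124800 had 853, 532, 1034 and 189 on 5 October, against 108, 52.8, 82.8 and 33.0 on 11 September, with no overlap. Not every copy was higher: MANES_10G020100 averaged 222 ± 27.8 on 5 October and 272 ± 78.5 on 11 September and was not called (adjusted p = 0.714).

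**Figure D2:**
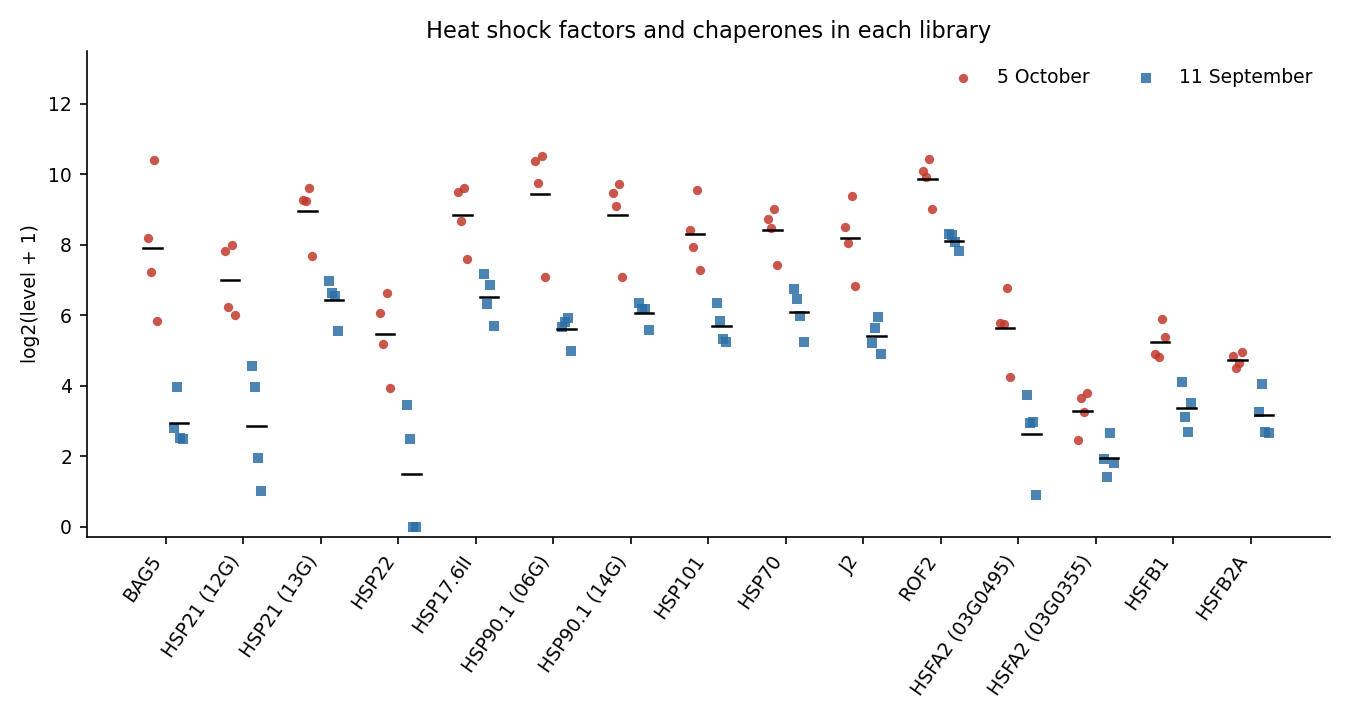
Log2(level + 1) of 15 heat shock factors and chaperones, with 5 October as red circles on the left and 11 September as blue squares on the right of each gene, 1 point per library and the mean as a bar. In all genes but the HSFA2 homologue MANES_03G035500 the lowest October point is above the highest September point.

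Partners of these chaperones that the list did not hold were named after their values were seen. J2 (MANES_11G099500), a J-domain protein that hands substrates to HSP70, had 362, 265, 671 and 112 on 5 October, against 35.9, 49.1, 60 and 28.8 on 11 September (2.77 ± 0.39, adjusted p = 2.70e-05). ROF2 (MANES_12G050700), a prolyl isomerase of the FKBP type, had 1085, 958, 1368 and 518 on 5 October, against 311, 309, 268 and 223 on 11 September (1.75 ± 0.25, adjusted p = 3.73e-05). MANES_09G037400, which carries the domain of Aha1, an activator of the HSP90 ATPase, averaged 146 ± 91.2 on 5 October and 35.5 ± 7.87 on 11 September (1.81 ± 0.30, adjusted p = 0.000214). BIP2 (MANES_01G053300), the HSP70 of the endoplasmic reticulum, had 354, 365, 482 and 231 on 5 October, against 107, 148, 150 and 133 on 11 September. It rose by 1.37 ± 0.25 (adjusted p = 0.000502), and here too the dates did not overlap.

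Counted by protein domain, in families likewise chosen after values were seen, 11 of 22 genes with the HSP70 domain, 5 of 9 with the HSP90 domain and 23 of 54 with the HSP20 domain were called higher. None of the HSP70 and HSP90 genes and 2 of the HSP20 genes were called lower. Over all genes 2.11% were higher and 2.37% lower. Of 101 genes with a J domain 7 were higher and 2 lower, and of 29 genes of the 60 kDa chaperonin family 3 were higher. The HSP20 count varied with single libraries: it was 12 without library 3 of 5 October, and 14 without library 4 or 15 without library 3 of 11 September. It was 13 with a pseudocount of 0.1 and 14 when only these groups were fitted. The HSP70 count was 7 without library 3 of 5 October or with only these groups, and the J-domain count 4 without library 4 of 11 September.

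The 5 October libraries differed among themselves in the size of this rise. The summed level of the 63 IDs of the list was 9505, 7436, 13541 and 4188 in libraries 1 to 4 of 5 October, against 3366, 3303, 3166 and 2385 on 11 September. Library 3 was highest of its date in 40 of 53 members with a value there and library 4 lowest in 34. Every 5 October sum exceeded every 11 September sum, yet that of library 4 lay below all sums of 30 October (4412 to 5406). The list's count of higher genes was 28 without library 4 of 5 October, 17 without library 3 and 17 without library 4 of 11 September. No member was called lower under any of the alternatives to the comparison.

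Over the season the 5 October mean of the summed list was the highest of the 7 Bac Kan dates. It averaged 4603 on 31 May, 4118 on 29 June, 4498 on 26 July, 2937 on 15 August, 3055 on 11 September, 8668 on 5 October and 4738 on 30 October. On 11 September against 15 August 3 of the 54 genes were called higher and none lower, where 4.59% of all genes were higher and 2.99% lower. On 30 October against 5 October 2 were called higher and 23 lower, where 4.38% of all genes were higher and 3.13% lower. These comparisons share libraries with the step. Single genes differed in their course: HSP17.6II (MANES_16G083600) averaged 528 ± 99.7 on 31 May and 520 ± 272 on 5 October, and was lower on 30 October, where it averaged 36.5 ± 13.7 (adjusted p = 5.47e-07). HSP90.1 of MANES_06G152800 averaged 44.7 ± 6.94 on 30 October and 942 ± 599 on 5 October (adjusted p = 2.23e-06). BIP2 (MANES_01G053300) averaged 327 ± 82.8 on 30 October and 358 ± 102 on 5 October and was not called (adjusted p = 0.86).

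**Figure D3:**
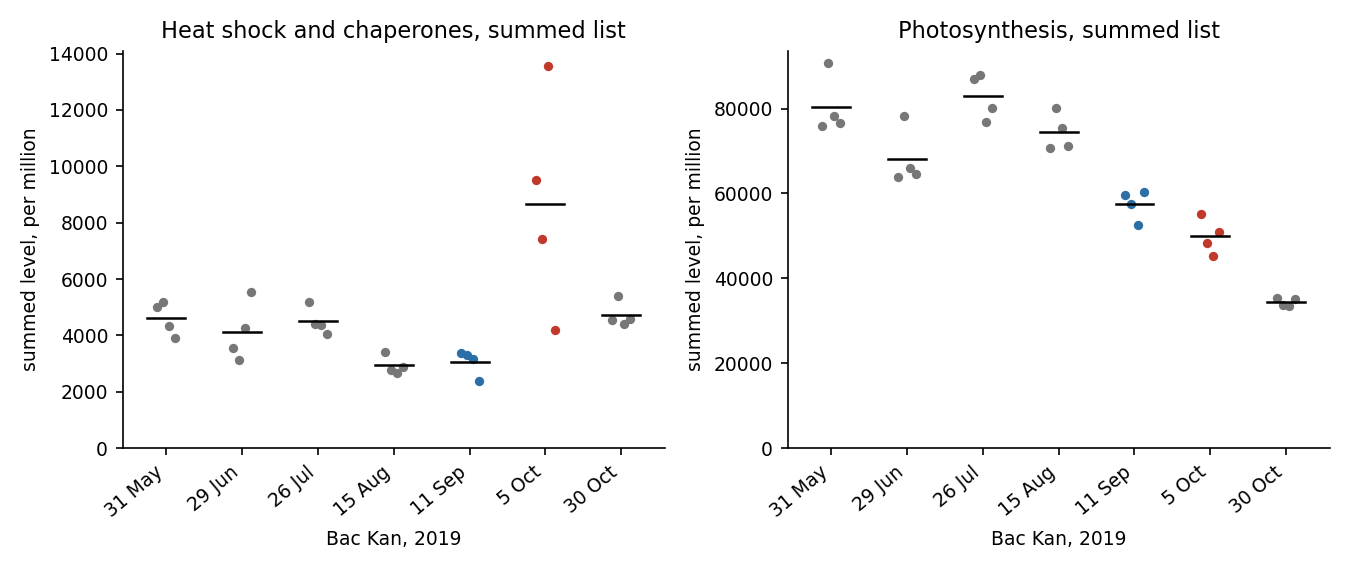
Summed level (of 1000000 per library) of the heat shock and chaperone list (63 IDs) and of the photosynthesis list (49 IDs) in each Bac Kan library over 7 dates, with the mean as a bar, 11 September in blue and 5 October in red. The heat list spreads from 4188 to 13541 on 5 October, and the photosynthesis list is lower on 30 October than on either date.

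Set against the mean of 11 September and 30 October, 5 October stood apart in 2.21% of genes, 242 above (1.03%) and 276 below (1.18%). This contrast uses the libraries of the step again. With median-ratio scaling the split was 359 above and 160 below. In the photosynthesis list 7 of 48 genes were above the mean of the neighbour dates and none below, with a median of 0.14. In the heat list 25 of 54 genes were above that mean and none below. Those furthest above were HSP21 of MANES_12G017300 (4.72, adjusted p = 7.50e-05), BAG5 of MANES_13G007700 (4.26, adjusted p = 0.000124), HSP22 of MANES_07G031300 (4.24, adjusted p = 0.000325), HSP90.1 of MANES_06G152800 (3.88, adjusted p = 2.54e-06) and MANES_02G124800 (3.56, adjusted p = 4.37e-07). Those furthest below under the same conditions included ELF4 of MANES_07G129600 (-3.34, adjusted p = 0.00266), CYP82C2 of MANES_05G167700 (-2.49, adjusted p = 0.00997) and the invertase inhibitor-like gene MANES_03G045600 (-2.02, adjusted p = 0.0051). The last had 0, 0, 0.272 and 0 on 5 October, against 2.03, 2.80, 2.07 and 1.14 on 11 September, and was not called in that step (adjusted p = 0.0719) but under 3 of 17 alternatives.

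Among the 14 lower members of the photosynthesis list were antenna proteins of both photosystems. LHCB2.1, a main antenna protein of photosystem II, has neighbouring homologues. MANES_01G175700 had 2027, 1325, 1227 and 1558 on 5 October, against 4080, 4089, 3522 and 5129 on 11 September (-1.47 ± 0.26, adjusted p = 0.000407). MANES_01G175600 had 569, 452, 370 and 585 on 5 October, against 1508, 1198, 1012 and 1526 on 11 September (-1.41 ± 0.25, adjusted p = 0.000377). The dates were wholly apart in both, though reads may be split between these copies.

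LHCB6, a minor antenna protein, had 824, 713, 733 and 945 in MANES_14G167100 on 5 October, against 1728, 1449, 1513 and 1757 on 11 September (-1.01 ± 0.14, adjusted p = 3.05e-05). LHCA3 of photosystem I (MANES_13G058600) had 3487, 2832, 2697 and 3285 on 5 October, against 5239, 5330, 5318 and 5639 on 11 September (-0.81 ± 0.16, adjusted p = 0.00107). Every September library lay above every October library. LHCB4.2 (MANES_08G091700) fell by 0.97 (adjusted p = 0.000395). So did PSAO (MANES_04G000900), a small subunit of photosystem I, by 1.18 (adjusted p = 0.0034), and PETC (MANES_S080400), the Rieske protein of the cytochrome complex, by 1.01 (adjusted p = 1e-04).

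The higher members were PSAH and RCA. PSAH (MANES_04G129900), a photosystem I subunit at which the mobile antenna docks, had 580, 557, 569 and 593 on 5 October, against 406, 432, 424 and 417 on 11 September, with no overlap (0.45 ± 0.11, adjusted p = 0.0125). RCA (MANES_09G095000), the activase of Rubisco, had 183, 134, 163 and 331 on 5 October, against 157, 51.3, 40.9 and 54.1 on 11 September. These overlapped through 1 September library at 157, and the rise of 1.54 ± 0.36 (adjusted p = 0.00824) was lost when only these groups were fitted (adjusted p = 0.0638).

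The summed photosynthesis list was lower at each date after 15 August. From 15 August to 11 September 17 of its 48 genes were called lower and none higher, where 2.99% of all genes were lower. From 5 to 30 October 22 were lower and none higher, where 3.13% of all genes were lower. Between those dates LHCA3 (MANES_13G058600) fell by 1.07 (adjusted p = 8.79e-06), and averaged 1453 ± 76.7 on 30 October against 3075 ± 373 on 5 October. LHCB4.2 (MANES_08G091700) fell by 1.81 (adjusted p = 3.04e-09). LHCB2.1 averaged 1209 ± 172 in MANES_01G175700 on 30 October against 1534 ± 357 on 5 October without a call (adjusted p = 0.534). These comparisons, too, share libraries with the step. In chlorophyll metabolism, with 1 of 27 genes higher and 1 lower, NYC1 (MANES_03G021500), which starts the breakdown of chlorophyll b, had 520, 516, 434 and 402 on 5 October, against 309, 282, 242 and 203 on 11 September. It rose by 0.86 ± 0.15 (adjusted p = 0.00048), with no overlap. PORA, a protochlorophyllide reductase, was lower by 0.86 (adjusted p = 0.0489), a call lost under 13 of 17 alternatives.

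ELIP1, a chlorophyll-binding protein that protects against strong light, is the member of that family that rose. MANES_15G033100, listed here with the cold and dehydration genes, had 1955, 1808, 1546 and 1695 on 5 October, against 801, 464, 426 and 316 on 11 September (1.88 ± 0.32, adjusted p = 0.000285). The dates were wholly apart, and it averaged 2647 ± 648 on 30 October. By protein domain, in a family chosen after values were seen, 11 of 24 chlorophyll a/b-binding genes were lower and 1 higher. Over all genes 2.37% were lower and 2.11% higher.

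The other cold and dehydration genes that rose were GolS1 and COR47. GolS1 makes galactinol, the precursor of raffinose sugars. Its homologue MANES_05G012000 had 191, 130, 363 and 282 on 5 October, against 79.0, 23.9, 7.56 and 6.06 on 11 September (3.6 ± 0.61, adjusted p = 0.000249). MANES_15G003200 had 16.9, 19.6, 31.8 and 27.4 on 5 October, against 23.1, 5.88, 3.84 and 1.5 on 11 September, overlapping through 1 September library (1.85 ± 0.43, adjusted p = 0.007). It was not called at a pseudocount of 0.1 (adjusted p = 0.233), with only these groups (adjusted p = 0.111) or without library 4 of 11 September (adjusted p = 0.0727). COR47 (MANES_05G140400), a dehydrin, had 1748, 1850, 1584 and 1566 on 5 October, against 987, 1008, 963 and 754 on 11 September (0.87 ± 0.16, adjusted p = 0.000568), and was wholly apart. MANES_08G072000, a protein of the late embryogenesis abundant kind, also rose, with 16.8, 17.9, 11.9 and 18.8 on 5 October against 1.01, 0, 0.709 and 0 on 11 September (3.65 ± 0.62, adjusted p = 0.000269).

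Of 75 abscisic acid genes 3 were called higher and 3 lower, beside 2.11% and 2.37% over all genes, with a median difference of 0.08. Leaving out 1 library at a time gave 0 to 4 higher and 3 to 4 lower, with none higher without library 4 of 11 September and 1 higher without library 1, 3 or 4 of 5 October or library 1 of 11 September. ABF2 (MANES_18G037900), a transcription factor of the hormone's response, averaged 115 ± 18.1 on 5 October and 66.2 ± 16.2 on 11 September (0.81 ± 0.20, adjusted p = 0.0146). HB7 (MANES_01G038900) averaged 11.9 ± 3.93 on 5 October and 3.18 ± 1.64 on 11 September (1.65 ± 0.46, adjusted p = 0.0274), and AFP2 (MANES_01G027200) 32.2 ± 8.36 on 5 October and 12 ± 5.41 on 11 September (1.41 ± 0.40, adjusted p = 0.0342). The call of ABF2 was lost without library 4 of either date, that of HB7 without any 1 of 6 libraries, and that of AFP2 without any 1 of 6 libraries, at adjusted p up to 0.0987, 0.0995 and 0.168. Nor was AFP2 called at a pseudocount of 0.1 (adjusted p = 0.0826). Lower were SNRK2.3 (MANES_13G128400), a kinase of the core pathway, by 1.0 (adjusted p = 0.00938), ABA2 (MANES_04G164700), an enzyme of hormone synthesis, by 0.57 (adjusted p = 0.0103), and CCD4 (MANES_15G183500), a carotenoid cleavage enzyme, by 0.84 (adjusted p = 0.000568).

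Tubulins, the subunits of microtubules, formed a group of lower genes that was noticed in the values and counted afterwards. Of 24 genes with the tubulin domain 11 were called lower and none higher, beside 2.37% lower and 2.11% higher over all genes. The median difference was -0.69, and 10 to 12 were lower under the alternatives. TUB6 (MANES_05G200200) had 108, 92.9, 110 and 132 on 5 October, against 268, 233, 299 and 361 on 11 September (-1.37 ± 0.16, adjusted p = 7.89e-07). TUB1 (MANES_05G147000) had 6.72, 12.3, 12.5 and 14.7 on 5 October, against 37.1, 42.6, 54.1 and 71.9 on 11 September (-2.07 ± 0.30, adjusted p = 3.88e-05). TUA5 (MANES_15G108500) averaged 152 ± 14.2 on 5 October and 364 ± 90.5 on 11 September (-1.23 ± 0.20, adjusted p = 0.000219), and TUA2 (MANES_10G087300) 168 ± 8.67 on 5 October and 341 ± 91.6 on 11 September (-0.98 ± 0.15, adjusted p = 1e-04). In all 4 the October libraries lay below the September ones. On 11 September against 15 August 3 of the 24 were called higher and none lower, TUB1 by 1.2 (adjusted p = 0.00992) among them. On 30 October against 5 October 2 were higher and 5 lower. Both comparisons share libraries with the step.

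CESA6 (MANES_12G148100), a subunit of the cellulose synthase of growing walls, had 19.6, 16.6, 21.7 and 14.9 on 5 October, against 33.3, 38.0, 39.2 and 43.5 on 11 September (-1.05 ± 0.17, adjusted p = 0.000168). It was named after its values were seen and is not among the 9 genes found by the cellulose synthase domain. Those 9 held no call, with 6 differences above 0, 3 below and a median of 0.05. Of 14 actin genes 1 was lower, and of 11 genes of the cofilin family 2 were lower, with all 11 differences below 0. Histone H4 (MANES_04G032600), a mark of replicating cells, had 217, 158, 243 and 270 on 5 October, against 425, 378, 467 and 626 on 11 September (-1.09 ± 0.24, adjusted p = 0.00538). It was the 1 called gene of 23 in the cell proliferation list, 4.35% beside 4.48% of all genes. The list summed to 213 to 350 on 5 October and 501 to 783 on 11 September. Without the H4 homologues the sums overlapped, at 16.7 to 30.6 on 5 October and 21.3 to 41.8 on 11 September. Over the season the mean sum of the whole list was highest on 11 September, at 426 on 31 May, 358 on 29 June, 304 on 26 July, 405 on 15 August, 605 on 11 September, 307 on 5 October and 301 on 30 October. In bulk leaf, fewer cells of a kind and less RNA per cell cannot be told apart. The part of young tissue in the tubulin and H4 values was not tested.

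**Figure D4:**
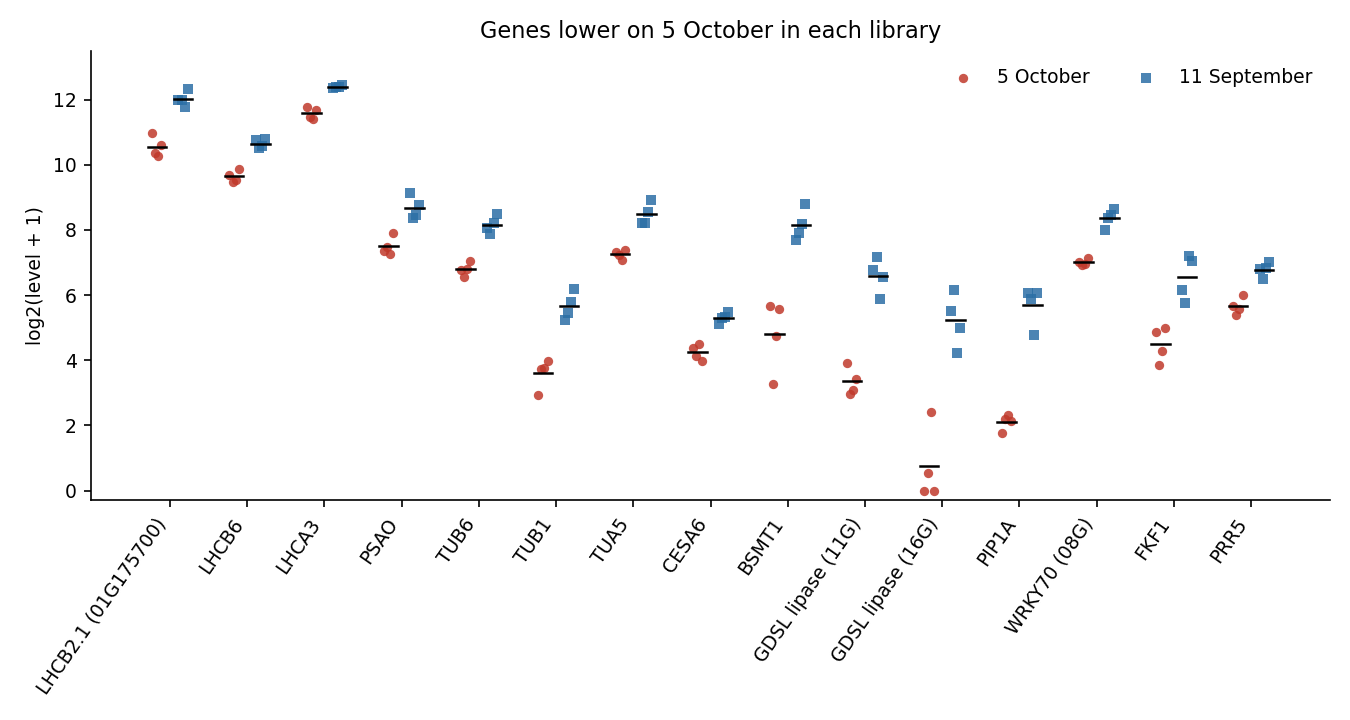
Log2(level + 1) of 15 genes called lower, with 5 October as red circles on the left and 11 September as blue squares on the right of each gene, 1 point per library and the mean as a bar. In each gene shown all October points lie below all September points.

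Among single genes with the largest falls were enzymes and transport proteins. BSMT1 (MANES_02G096900) belongs to a family of methyltransferases of salicylic and benzoic acid, and had 50.3, 8.65, 25.7 and 46.9 on 5 October, against 204, 238, 293 and 441 on 11 September (-3.32 ± 0.32, adjusted p = 2.56e-08). The GDSL lipase-like gene MANES_11G031200 had 14.2, 6.89, 7.59 and 9.72 on 5 October, against 108, 142, 57.6 and 92.4 on 11 September (-3.23 ± 0.48, adjusted p = 4.22e-05). The other gene of this kind, MANES_16G036500, had 0, 0.457, 4.37 and 0 on 5 October, against 44.7, 70.3, 17.8 and 30.6 on 11 September (-4.48 ± 0.58, adjusted p = 8.63e-06). In all 3 the dates were far apart.

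PIP1A (MANES_11G089300), an aquaporin of the plasma membrane, had 2.39, 3.57, 3.98 and 3.45 on 5 October, against 66.1, 57.7, 26.6 and 65.7 on 11 September (-3.59 ± 0.60, adjusted p = 0.000248). It was 1 of 2 lower genes among 31 aquaporins, a family chosen after values were seen. The 2 made up 6.45% of the family, beside 4.48% of all genes, and 17 of the 31 differences were above 0 and 14 below. OASA1 (MANES_15G029400), a cysteine synthase, averaged 12.1 ± 9.59 on 5 October and 57.8 ± 13.6 on 11 September (-2.41 ± 0.54, adjusted p = 0.00523). MLP423 (MANES_05G090000) averaged 22.6 ± 17.9 on 5 October and 119 ± 46.2 on 11 September (-2.74 ± 0.64, adjusted p = 0.00805), and GRX480 (MANES_13G141400), a glutaredoxin, 2.83 ± 1.26 on 5 October and 21.4 ± 4.21 on 11 September (-2.59 ± 0.56, adjusted p = 0.00413). The call of MLP423 was lost without library 1 of 5 October (adjusted p = 0.059). The CCT motif gene MANES_02G216600 had 18.0, 2.65, 0 and 6.72 on 5 October, against 27.8, 23.8, 35.2 and 30.4 on 11 September (-2.64 ± 0.60, adjusted p = 0.00609), a call lost with only these groups (adjusted p = 0.0721) and without library 3 of 5 October (adjusted p = 0.0562). MANES_04G078000, which has no name or description in the files, had 39.2, 37.9, 39.7 and 34.3 on 5 October, against 1806, 866, 299 and 337 on 11 September (-4.03 ± 0.59, adjusted p = 3.87e-05). MANES_14G016500, a ribosomal L27e gene, and MANES_05G057100, a Cox19 family gene, were listed at 0 in all 4 libraries of 5 October. On 11 September the L27e gene had 19.1, 6.61, 23.5 and 2.95 and the Cox19 gene 8.13, 2.49, 8.89 and 3.34. Genes of this kind act in every cell, so they are given only as listed at 0, with no fold.

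Cytochrome P450 genes were more often higher than lower, 24 against 5 of 189, in a count made after values were seen. Of all genes tested 2.11% were higher and 2.37% lower. Without library 4 of 11 September 14 were higher, and without library 2 of 5 October 2 were lower. The lower count was 8 to 10 with the deposited FPKM, only these groups or the 7 Bac Kan groups. CYP76G1 (MANES_10G113200) had 22.8, 26.6, 14.4 and 16.4 on 5 October, against 1.23, 1.4, 1.47 and 0 on 11 September (3.43 ± 0.37, adjusted p = 3.36e-07). CYP82C4 (MANES_05G167000) had 436, 422, 332 and 512 on 5 October, against 229, 234, 202 and 167 on 11 September (1.03 ± 0.16, adjusted p = 0.000138). CYP83B1 (MANES_05G140000) had 3.85, 9.83, 2.90 and 7.97 on 5 October, against 0, 0, 1.37 and 0.628 on 11 September (2.22 ± 0.32, adjusted p = 3.05e-05). In contrast CYP82C2 (MANES_05G167700) had 10.2, 9.08, 13.7 and 45.1 on 5 October, against 52.3, 57.2, 164 and 140 on 11 September (-2.47 ± 0.64, adjusted p = 0.0178). That call was lost without library 1 or 2 of 5 October or library 3 or 4 of 11 September (adjusted p up to 0.0781). Another higher gene was the PLATZ transcription factor MANES_09G128900, with 716, 908, 765 and 870 on 5 October against 407, 403, 359 and 300 on 11 September (1.15 ± 0.14, adjusted p = 2.43e-06). RING1A (MANES_13G144300) had 21.4, 8.55, 29.7 and 14.5 on 5 October, against 0, 0, 0 and 6.23 on 11 September (3.44 ± 1.04, adjusted p = 0.0464), a call lost under 9 of 17 alternatives.

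Of 63 starch, sugar and trehalose genes 7 were called lower and 1 higher, 12.7% together beside 4.48% of all genes. The higher gene was BAM1 (MANES_03G155800), a plastid beta-amylase, with 215, 156, 176 and 144 on 5 October against 53.0, 55.4, 47.1 and 29.7 on 11 September (1.90 ± 0.30, adjusted p = 0.000132). ADG1 (MANES_12G067900), a subunit of the enzyme that makes ADP-glucose for starch, had 305, 401, 405 and 448 on 5 October, against 787, 586, 854 and 716 on 11 September (-0.92 ± 0.15, adjusted p = 0.000167). GBSS1 (MANES_02G001000), which makes amylose, had 434, 464, 430 and 461 on 5 October, against 565, 581, 604 and 634 on 11 September (-0.41 ± 0.10, adjusted p = 0.0138). All 3 genes were without overlap between the dates. The call of GBSS1 was lost without library 4 of 11 September (adjusted p = 0.0611). AMY3 (MANES_05G097100), an alpha-amylase of the plastid, fell by 0.66 (adjusted p = 0.00606), and SWEET17 (MANES_15G011300), a fructose carrier of the vacuole, by 1.34 (adjusted p = 0.00951). Without library 1 of 11 September SWEET17 was not called (adjusted p = 0.0526). The list's count of lower genes was 4 without library 1 or without library 4 of 11 September.

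Phenylpropanoid genes were lower in 4 of 64 and higher in 2, 9.38% together beside 4.48% of all genes. The lower count ranged from 1, with a pseudocount of 0.1 or without library 2 of 5 October, to 10 when only these groups were fitted, and was 2 without any 1 of 5 other libraries. F5H (MANES_02G100800), which leads to syringyl lignin, had 15.8, 12.3, 10.9 and 19.8 on 5 October, against 0.675, 1.63, 1.66 and 1.04 on 11 September (2.80 ± 0.44, adjusted p = 1e-04). CCR1 (MANES_04G103200), another lignin enzyme, had 17.2, 24.8, 37.1 and 26.8 on 5 October, against 4.60, 1.5, 5.33 and 8.36 on 11 September (2.31 ± 0.51, adjusted p = 0.00495). Both rises were free of overlap, though CCR1 was not called at a pseudocount of 0.1 (adjusted p = 0.119). COMT1 (MANES_11G003300) was lower by 2.02 ± 0.49 (adjusted p = 0.00967), a call lost with the most abundant transcript alone (adjusted p = 0.735) and without library 2 of 5 October (adjusted p = 0.0607). The flavonoid enzymes CHS (MANES_03G150000) and F3H (MANES_02G104700) averaged 25.1 ± 10.3 and 113 ± 14.1 on 5 October, against 91.9 ± 31.9 and 303 ± 114 on 11 September (adjusted p = 0.0108 and 0.0314). Without library 2 of 5 October both calls were lost (adjusted p = 0.0649 and 0.0602). Nor was CHS called at a pseudocount of 0.1 (adjusted p = 0.186) or without library 4 of 11 September (adjusted p = 0.0505). F3H lost its call under 8 of 17 alternatives (adjusted p up to 0.122).

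Defence genes were called lower in 4 of 77 and higher in none, 5.2% together beside 4.48% of all genes. Without library 1 or 2 of 5 October, or library 3 or 4 of 11 September, 2 were lower. WRKY70, a factor of salicylate defence, had 128, 121, 122 and 139 in MANES_08G170600 on 5 October, against 253, 329, 353 and 401 on 11 September (-1.37 ± 0.19, adjusted p = 1.55e-05). This homologue was also below the mean of its neighbour dates (-1.22, adjusted p = 1.71e-05) and averaged 269 ± 41.5 on 30 October. It had been called higher on 11 September against 15 August (0.93, adjusted p = 0.00107). Both comparisons share libraries with the step. The second homologue, MANES_07G142400, averaged 1.39 ± 1.01 on 5 October and 9.22 ± 3.88 on 11 September (-2.10 ± 0.60, adjusted p = 0.0335), a call lost under 7 of 17 alternatives. The basic chitinase CHIB (MANES_S012500) had 104, 74.3, 81.7 and 78.2 on 5 October, against 139, 188, 229 and 266 on 11 September (-1.24 ± 0.24, adjusted p = 0.00123).

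Of 50 jasmonate genes JAZ8 (MANES_17G071600), a repressor of that response, and COI1 (MANES_10G017900), the receptor of the hormone, were lower. That was 4% of the list, beside 4.48% of all genes. COI1 fell by 0.52 (adjusted p = 0.0286), a call lost with median-ratio scaling and without any 1 of 5 libraries (adjusted p up to 0.0968). JAZ8 had 0, 0, 0.453 and 0 on 5 October, against 9.83, 2.12, 0.432 and 6.07 on 11 September, which overlapped (adjusted p = 0.00473). It was not called when only these groups were fitted (adjusted p = 0.0877) or at a pseudocount of 5 (adjusted p = 0.0604). SAG21 (MANES_01G220400) was the 1 lower gene of 30 in the starvation and senescence list, with 46.6, 40.9, 41.7 and 63.9 on 5 October against 262, 204, 244 and 166 on 11 September (-2.16 ± 0.53, adjusted p = 0.0114). None of that list was higher, and 3.3% of it was called beside 4.48% of all genes.

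Other hormone and nutrient lists held few calls, where 4.48% of all genes were called. The share called was 6.9% of auxin, 4.5% of gibberellin, 3.7% of nitrogen and 3.3% of ethylene genes. It was 7.5% of antioxidant and 5.6% of wall and aquaporin genes. Of 29 auxin genes IAA7 (MANES_03G169700), a repressor of auxin response, was lower by 1.24 ± 0.25 (adjusted p = 0.00206) and IAA9 (MANES_12G120800) by 0.82 (adjusted p = 0.0422), a call lost under 7 of 17 alternatives (adjusted p up to 0.157). Of 44 gibberellin genes CYP714A1 (MANES_18G122800), which in Arabidopsis inactivates the hormone, had 345, 396, 391 and 376 on 5 October, against 178, 203, 165 and 187 on 11 September (1.04 ± 0.24, adjusted p = 0.00608). GA1 (MANES_01G207300), an early enzyme of its synthesis, averaged 0.442 ± 0.170 on 5 October and 2.57 ± 0.983 on 11 September (-1.27 ± 0.34, adjusted p = 0.0237), a call lost under 7 of 17 alternatives. The dates did not overlap in either gene. AMT1.1 (MANES_15G047400), an ammonium carrier, was the lower one of 27 nitrogen genes (-0.69, adjusted p = 0.0156), and the ethylene receptor EIN4 (MANES_08G137300) the lower one of 30 ethylene genes (-0.80, adjusted p = 0.0488). AMT1.1 lost its call without any 1 of 3 libraries and EIN4 under 11 of 17 alternatives. Among 40 antioxidant genes CSD1 (MANES_08G125400), a superoxide dismutase, fell by 1.75 ± 0.41 (adjusted p = 0.00885) and DHAR2 (MANES_10G037200) by 0.81 (adjusted p = 0.00453), while PRXQ (MANES_16G091900), a peroxiredoxin, rose by 0.60 (adjusted p = 0.0212). EXPA8 (MANES_08G172000), an expansin, rose by 1.45 ± 0.33 (adjusted p = 0.00538) and PIP3 (MANES_11G096600) fell by 1.04 (adjusted p = 0.023) among 54 wall and aquaporin genes. The EXPA8 call was lost when only these groups were fitted (adjusted p = 0.0872). PRXQ lost its call without any 1 of 5 libraries (adjusted p up to 0.082) and PIP3 without any 1 of 4 (adjusted p up to 0.143). PIP3 also lost it with only these groups fitted (adjusted p = 0.105). No gene was called among 23 of phosphate status and 14 of iron and sulphur status.

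Evening clock genes were lower in 3 of 14 and higher in none, 21.4% called beside 4.48% of all genes. FKF1 (MANES_15G134900), the blue-light receptor of the evening, had 28.3, 13.4, 18.3 and 31.0 on 5 October, against 71.2, 53.7, 146 and 131 on 11 September (-2.05 ± 0.39, adjusted p = 0.00113). PRR5 (MANES_01G043200), a repressor of morning genes, had 49.5, 41.2, 46.3 and 62.9 on 5 October, against 111, 88.9, 113 and 129 on 11 September (-1.13 ± 0.27, adjusted p = 0.00969). The dates were wholly apart in both. ELF4 (MANES_07G129600), of the evening complex, had 0, 0, 1.67 and 2.43 on 5 October, against 2.83, 11.7, 23.9 and 21.7 on 11 September (-2.89 ± 0.74, adjusted p = 0.0166), a call lost without library 1 or 2 of 5 October or library 3 or 4 of 11 September or at the pseudocount of 0.1 (adjusted p up to 0.0777). On 15 August FKF1 had averaged 24.7 ± 8.91 and ELF4 0.901 ± 1.4, near their 5 October means of 22.8 ± 8.28 and 1.02 ± 1.22. Both were called higher on 11 September against 15 August, FKF1 by 1.92 (adjusted p = 0.00125) and ELF4 by 3.01 (adjusted p = 0.00796), while PRR5 was not (0.33, adjusted p = 0.553). All 3 were higher on 30 October than on 5 October, FKF1 by 1.37 (adjusted p = 0.0235), PRR5 by 1.32 (adjusted p = 0.00127) and ELF4 by 3.8 (adjusted p = 0.000658). The comparisons with 15 August and 30 October share libraries with the step by which these genes were named.

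GI (MANES_18G095000), which in Arabidopsis acts with FKF1, had 81.5, 85.1, 91.5 and 85.7 on 5 October, against 109, 87.2, 122 and 122 on 11 September and was not called (-0.34 ± 0.18, adjusted p = 0.333). The TOC1 homologues MANES_06G089800 and MANES_14G081500 differed by -0.12 ± 0.27 (adjusted p = 0.894) and -0.02 ± 0.24 (adjusted p = 0.998). Of 16 morning genes 2 were called higher and 1 lower, 18.75% together beside 4.48% of all genes. Without library 1 of 5 October none of them was called. RVE1 (MANES_01G123100) rose, with 38.7, 10.4, 11.6 and 14.7 on 5 October against 3.70, 5.48, 1.15 and 1.52 on 11 September (2.27 ± 0.55, adjusted p = 0.00987). LNK1 (MANES_14G166300) rose by 0.63 (adjusted p = 0.0261) and RVE6 (MANES_14G022100) fell by 1.31 (adjusted p = 0.0103). The LHY homologues MANES_01G239000 and MANES_05G015600 averaged 25 ± 5.74 and 76.1 ± 13.9 on 5 October, against 14.2 ± 4.77 and 51.9 ± 15.5 on 11 September, without a call (adjusted p = 0.0957 and 0.17). MANES_01G239000 was called without library 1 of 11 September, but its difference ran from -0.90 to 0.99 over the 17 alternatives. Without library 1 of 5 October RVE1 and RVE6 were not called (adjusted p = 0.058 and 0.0539). RVE6 also lost its call with the most abundant transcript alone (adjusted p = 0.287), and LNK1 lost its call under 7 of 17 alternatives. The hour of sampling is not in the labels, so date and hour cannot be told apart in these genes.

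Of 30 photoperiod genes COL5 (MANES_06G028200) had 107, 84.9, 93.3 and 103 on 5 October, against 145, 171, 185 and 168 on 11 September, and fell by 0.78 ± 0.15 (adjusted p = 0.00133). CDF3 (MANES_14G079000), a DOF factor of the day-length pathway, fell by 0.74 (adjusted p = 0.0224), and FKF1 is the third lower gene. The 3 made up 10% of the list, beside 4.48% of all genes. The CDF3 call was lost without any 1 of 4 libraries (adjusted p up to 0.133) and with only these groups fitted (adjusted p = 0.0758). The CO homologue MANES_01G024100 had 0, 2.78, 1.38 and 6.37 on 5 October, against 0.234, 3.88, 0 and 1.73 on 11 September and was not called (adjusted p = 0.687).

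Flowering genes downstream showed no call in this step. The FT homologue MANES_13G000800 had 1.05, 5.60, 13.6 and 14.2 on 5 October, against 9.25, 16.4, 26.9 and 19.6 on 11 September. The dates overlapped, with a difference of -1.27 ± 0.67 (adjusted p = 0.331). MANES_12G001600, also FT, had 10.6, 6.49, 1.41 and 11.0 on 5 October, against 0, 2.65, 31.0 and 22.5 on 11 September (-0.03 ± 0.71). BFT (MANES_14G027800), of the same family and in Arabidopsis a repressor of flowering, had 44, 50.1, 53.9 and 34.9 on 5 October, against 67.9, 67.8, 54.5 and 63.4 on 11 September (-0.48 ± 0.46, adjusted p = 0.672). The BFT libraries did not overlap, which alone held for 11.6% of all genes.

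FUL, a MADS-box gene of the floral transition, has 3 homologues in the list. MANES_14G088500 had 286, 280, 246 and 281 on 5 October, against 170, 142, 198 and 202 on 11 September. All October libraries lay above the September ones, yet the gene was not called (0.63 ± 0.67, adjusted p = 0.706). That standard error rests on the spread within all 11 groups and not on these libraries alone. A fit of only these groups called the gene (adjusted p = 0.0302), and the range over 17 alternatives was 0.0302 to 0.858. MANES_02G059300 averaged 43.8 ± 4.27 on 5 October and 34.1 ± 5.64 on 11 September (adjusted p = 0.482), and MANES_06G081800 46.9 ± 14.8 on 5 October and 60.9 ± 15.3 on 11 September (adjusted p = 0.734). The SOC1 homologues MANES_05G041900 and MANES_01G263500 differed by 0.06 ± 0.22 (adjusted p = 0.946) and -0.15 ± 0.30 (adjusted p = 0.876). For MANES_05G041900 the difference ran from -1.64 to 0.12 over the 17 alternatives. The AP1 homologue MANES_01G103200 differed by 0.61 ± 0.49 (adjusted p = 0.584). These misses do not show that levels were equal.

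**Figure D5:**
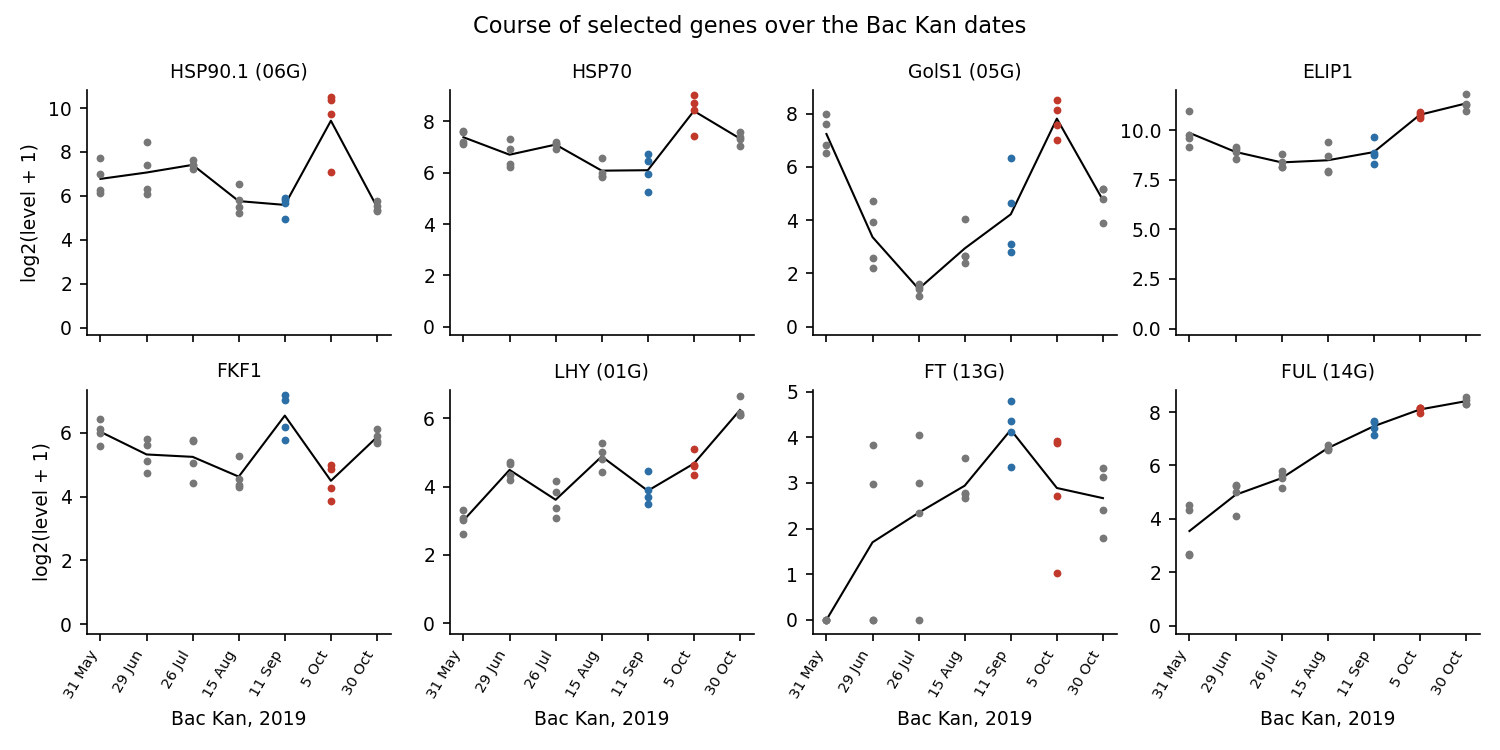
Log2(level + 1) of 8 genes in each Bac Kan library over the 7 dates of 2019, with the line through the means, 11 September in blue and 5 October in red. HSP90.1, HSP70 and GolS1 peak on 5 October, FKF1 dips, ELIP1 is higher on 30 October than on 5 October, and the FUL homologue lies higher at each date.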

How the data were processed

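The authors deposited 11 tables of FPKM values per transcript, 4 leaf libraries in each, and per the submitters' processing notes TopHat2 was used. Its version, the genome build, the counting and strand rule are not given in the sources used here. Libraries were made from 2 µg of total RNA with 14 cycles of PCR, per the labels. FPKM were summed per gene ID and each library was rescaled to 1000000. Genes with a level of 1 or more in 4 or more of the 44 libraries were kept. Log2(level + 1) was fitted over all 11 groups with limma 3.58.1 in R 4.3.3 (trended empirical Bayes, Benjamini-Hochberg adjustment). FPKM are not counts, so no count model was used and depth per library is unknown, apart from a relative depth read from the lowest values. Tested on simulated data for this comparison (23030 genes), the fit called 47% of 100 genes changed by 1 and 91% of 100 changed by 2 on the log2 scale, and 4 of 22830 unchanged genes. The changed genes were drawn only from genes of higher level on 11 September, with independent normal noise of the same spread in every group. The 47% and 91% therefore do not cover low genes, and none of these rates covers genes whose spread differs between groups. Members, lists and families were chosen with earlier results of these data known. Named genes were the 12 largest rises and falls among called, annotated genes with no overlap and a mean of 5 or more, up to 3 called members a list, the 5 furthest from the neighbour dates each way, and flowering homologues. Other genes named were added after their values were seen. Alternatives were pseudocounts of 0.1 and 5, other filters and scalings, smaller fits, the most abundant transcript and leaving out each library. A column of the 30 October table, 1 in number, was left out as a copy.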

Additional observations from a re-analysis of the deposited data

Results flagged for a closer look

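In each gene named here, the 4 libraries of either date were searched for 1 library far from the other 3, which a standard test for outliers in 4 values flags by chance in about 1 in 20 groups. It flagged 15 of the groups (6.10%). On 5 October a high library stood apart in the GDSL lipase-like gene MANES_16G036500 (4.37), CYP82C2 (MANES_05G167700, 45.1), JAZ8 (MANES_17G071600, 0.453), MANES_03G045600 (0.272), TOC1 (MANES_14G081500, 22.3) and RVE1 (MANES_01G123100, 38.7). On that date a low library stood apart in CSD1 (MANES_08G125400, 25.2) and in the FUL homologue MANES_14G088500 (246). On 11 September a high library stood apart in RCA (MANES_09G095000, 157), RING1A (MANES_13G144300, 6.23), MANES_14G149500 (0.409) and BAG5 (MANES_13G007700, 14.4). On that date a low library stood apart in CHS (MANES_03G150000, 44.2), TOC1 (MANES_06G089800, 6.82) and CYP76G1 (MANES_10G113200, listed at 0).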

How the results depend on the processing

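Of 102 named genes called between the dates, 68 kept the call under all 17 alternatives and 34 lost it under 1 or more, while 4 of 21 not called gained one and none of the called genes changed sign. Leaving out 1 library at a time gave 256 to 458 genes higher and 294 to 493 lower on 5 October. The lowest were without library 4 of 11 September (256 and 294), and without library 2 of 5 October the counts were 327 and 331. Against the mean of the neighbour dates these fits gave 147 to 238 above and 113 to 269 below, lowest without library 2 of 5 October. Above the neighbour dates, 150 were called without library 3 of 5 October. Below them, 161 were called without that library, 158 without library 4 of 5 October, 176 without library 4 of 11 September and 161 without library 1 of 30 October. A fit of only the groups compared called 160 above and 150 below, and median-ratio scaling 160 below. The cause was not tested. No scaling moved the median over all genes by more than 0.1. Depth is unknown, so low genes limit what can be called. No paired analysis was possible because the table columns carry no replicate number.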

Other observations

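In the 352 genes with a ribosomal protein in their description, 8 were called higher and 4 lower on 5 October against 11 September (3.41% together, beside 4.48% of all genes), with a median difference of -0.03. From 5 to 30 October 54 of them were called higher and 3 lower, where 4.38% of all genes were higher and 3.13% lower. Of 80 WRKY genes 1 was higher and 5 were lower on 5 October against 11 September, and 9 were higher and none lower on 30 October against 5 October. Of 58 NAC genes 4 were higher and none lower on 5 October, of 107 AP2/ERF genes 1 was higher and 1 lower, and of 213 MYB genes 5 were higher and 2 lower. The share called on 5 October was 7.5% of WRKY, 6.9% of NAC, 1.87% of AP2/ERF and 3.29% of MYB genes. Most of these counts varied with single libraries: without library 4 of 11 September 2 WRKY genes were lower, 1 NAC gene and 1 MYB gene higher, and no ribosomal protein gene was lower. The 9 cellulose synthase genes found by domain held no call. These families were chosen after values were seen.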
